A study of Mus musculus with 12 samples.

Results

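The genes described here are 43 genes of DNA replication and of the passage from G1 into S phase. They were chosen by their symbols, with earlier results of these data known. All 43 were found, each listed for all 12 libraries, among the 15663 genes measured by RNA sequencing of mouse hearts at embryonic day 9.5. All 43 also passed the filter on low values in each of the 6 comparisons. The libraries fall into 4 genotype groups of 3, on a strain given as C57/BL 6. The double mutant, named so from its label, carried NkxCre with Asb2fl/fl and Flnafl/fl. The Asb2 cKO (conditional knockout) carried NkxCre with Asb2fl/fl. A group with NkxCre, Asb2fl/+ and Flnafl/fl is called the Flna-labelled group here, because its Flna level did not follow its label, and the Flna level of the double mutant did not either. The control carried NkxCre with Asb2fl/+. All groups therefore shared the Cre driver and at least 1 floxed Asb2 allele, and neither wild-type nor Cre-free hearts were among them. The driver named NkxCre need not act in every cell of a dissected heart, and the labels do not say whether a library held 1 heart or several pooled. The p-values therefore rest on the variation among libraries, which may in part be technical. The design asks which transcripts differ when Asb2 is deleted, and whether Flna deletion alters that difference.

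In G1, cyclin D and cyclin E kinases inactivate the retinoblastoma proteins and release the E2F transcription factors, which switch on genes for DNA synthesis. Origins of replication are licensed by the origin recognition complex, CDC6 and CDT1, which load the MCM helicase, and the helicase is then activated by CDC45 and the GINS complex. DNA polymerases, the PCNA clamp and its loader copy the strands from deoxynucleotides that ribonucleotide reductase, thymidylate synthase and thymidine kinase supply, and new DNA is packed by chromatin assembly factors. The heart of this stage grows by division of cardiomyocytes, which carry on cycling while they contract. ASB2 is a subunit of a cullin ubiquitin ligase that picks out proteins for degradation, filamins among them. Flna encodes filamin A, which links actin filaments to one another.

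Levels are in CPM, as the authors deposited them on scaled library sizes. Each library held 25954539 to 42473118 reads in the genes listed, which makes a single read 0.0239 to 0.038 CPM. Differences are of log2(CPM + 0.5), which understates differences of low genes, and SE is the standard error of the difference. A gene is called higher or lower when its p from limma, adjusted by Benjamini and Hochberg's method over all genes tested, is under 0.05. Asb2 stood at 122, 121 and 153 CPM in the double mutant, and in the Asb2 cKO at 77.8, 163 and 115 CPM. The Flna-labelled group had 125, 113 and 197 CPM of it, and the control 289, 183 and 218 CPM. Flna was not lower where it was labelled as floxed, with 1012, 1012 and 1146 CPM in the double mutant and 958, 1011 and 989.5 CPM in the Flna-labelled group. It was at 1032, 869 and 725 CPM in the Asb2 cKO libraries, and the control had 490.3, 554 and 721 CPM. Against the control, Flna was called higher in the double mutant (log2 difference 0.86, adjusted p = 0.00255) and in the Asb2 cKO (0.58, adjusted p = 0.0464). The Flna-labelled group did not pass (0.76, adjusted p = 0.147). Counts over the whole gene take in exons outside any floxed stretch, which the labels do not name. Asb2 RNA was lower than in the control in the double mutant (log2 difference -0.78, adjusted p = 0.00724) and in the Asb2 cKO (-0.99, adjusted p = 0.0248), but did not pass between the double mutant and the Flna-labelled group, whose libraries overlap (-0.10, adjusted p = 0.737). Directions given for the double mutant and the Flna-labelled libraries rest on the labels. Xist, the transcript of the inactive X chromosome, was at 1 CPM or more in double mutant library 3 (9.34 CPM), Asb2 cKO libraries 1 and 3 (571 and 377 CPM) and control libraries 2 and 3 (302 and 106 CPM), and under 1 CPM in the other 7, so Xist and genotype are unevenly spread. Of the 43 genes, Pola1 lies on chromosome X. Cardiomyocyte markers were abundant in every library, though unevenly, with a summed level of 18191 to 44997 CPM. Actc1 (cardiac actin) averaged 10558 ± 2417 CPM in the double mutant and 10462 ± 2486 CPM in the Asb2 cKO. Actc1 had 7187 ± 2362 CPM in the Flna-labelled group and 10065 ± 2387 CPM in the control (SD, n = 3 each).

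Many replication and G1/S transcripts were lower in both groups with Asb2fl/fl. In the double mutant, 31 of the 43 genes fell against the control and 0 rose, where 16.7% of 14015 genes tested fell and 15.6% rose. In the Asb2 cKO, 12 of 43 fell and 0 rose against the control, where 10.9% of 14034 genes fell and 10.7% rose. In the Flna-labelled group 0 of 43 were called in either direction against the control, where 0.0288% of 13891 genes rose and 0.0432% fell. Set against the Flna-labelled group, 36 of 43 fell in the double mutant and 0 rose, where 16.3% of 13954 genes fell and 15.1% rose. The median log2 difference of the 43 genes was -0.64 for the double mutant against the Flna-labelled group (all genes -0.02), -0.57 for the double mutant against the control (all genes 0.01), and -0.37 for the Asb2 cKO against the control (all genes -0.01). Among the called genes, levels in the double mutant ran from 33.8% (Ccne1) to 75.3% (Uhrf1) of the control mean. Every double mutant library lay below every control library for 35 genes, where 24.2% of all genes did so. Every double mutant library lay below every Flna-labelled library for 39 genes, where 25.1% of all genes did so. Every Asb2 cKO library lay below every control library for 15 genes, where 21.5% of all genes did so. In bulk RNA, fewer cells in S phase and less RNA of these genes per cell cannot be told apart.

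**Figure D1:**
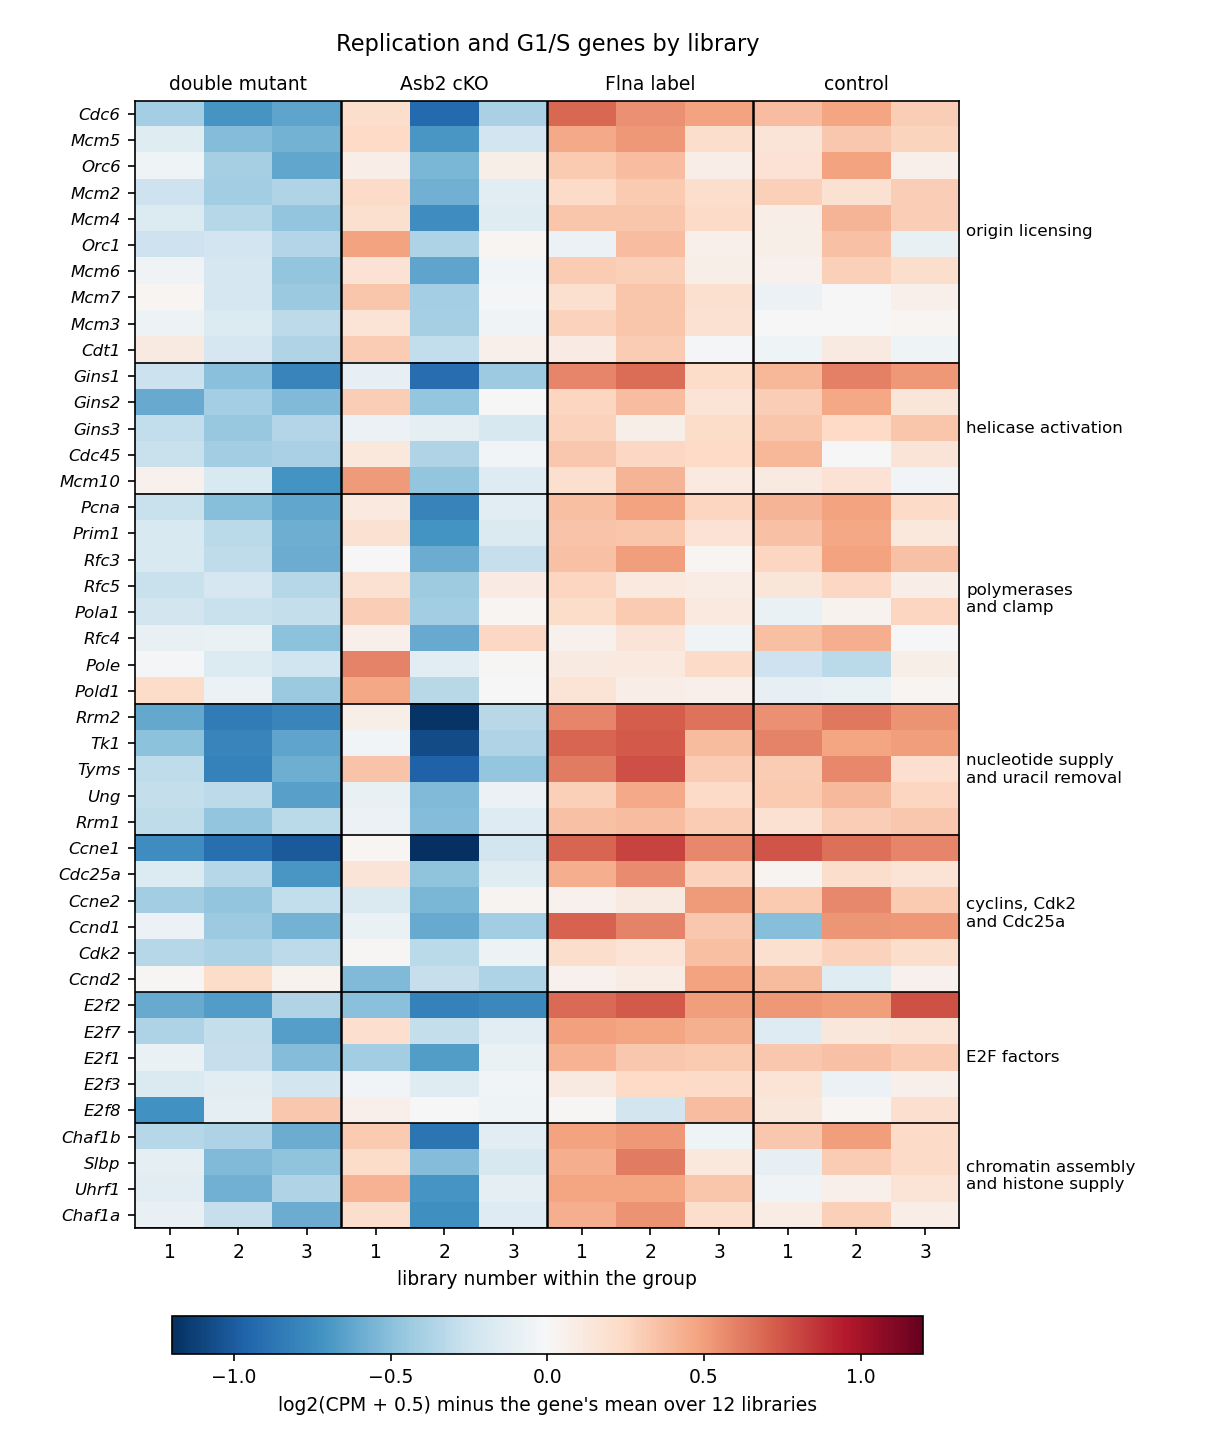
Heat map of the 43 genes (rows, by role) in the 12 libraries (columns, by group), coloured by log2(CPM + 0.5) minus the gene's mean over all libraries. Blue (below the mean) covers most genes in the 3 double mutant libraries and in Asb2 cKO library 2, whereas Asb2 cKO library 1 is mostly above the mean, with a median deviation of 0.16.

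The Asb2 cKO libraries differed among themselves more than those of any other group. The median over the 43 genes of the coefficient of variation within a group was 13.2% in the double mutant, 25.7% in the Asb2 cKO, 7.73% in the Flna-labelled group and 7.94% in the control. Library 1 of the Asb2 cKO was the highest of its group for 37 genes, and library 2 was the lowest for 40. The genes' median log2 deviation from their mean over all libraries was -0.22, -0.35 and -0.49 in double mutant libraries 1, 2 and 3, 0.16, -0.54 and -0.13 in the Asb2 cKO, 0.32, 0.37 and 0.23 in the Flna-labelled group and 0.19, 0.31 and 0.21 in the control. Asb2 cKO library 1 thus lay just under the control libraries, and library 2 lay below every double mutant library. Within the Asb2 cKO, Asb2 RNA ran in the reverse order of these medians, at 77.8 CPM in library 1, 115 CPM in library 3 and 163 CPM in library 2. Whether the 2 are related was not tested. Xist was at 571 CPM in library 1 and 0.380 CPM in library 2.

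All 5 genes of nucleotide supply and uracil removal fell in the double mutant against the control and against the Flna-labelled group, and 4 of 5 fell in the Asb2 cKO. In the same order, 16.7%, 16.3% and 10.9% of all genes tested fell. In the comparisons of the Flna-labelled group with the control and of the double mutant with the Asb2 cKO, 0 of 5 passed. Rrm2 (ENSMUSG00000020649, chr12:24708241-24714146, plus strand, GRCm38/mm10), the small subunit of ribonucleotide reductase, stood at 116, 98.6 and 102 CPM in the double mutant and 186, 78.1 and 140.1 CPM in the Asb2 cKO. Its levels were 266, 292 and 277 CPM in the Flna-labelled group and 259, 274 and 256 CPM in the control. The double mutant and Asb2 cKO libraries all lay below the lowest library of the other groups, and Asb2 cKO library 2 was the lowest of all. Rrm2 fell in the double mutant against the control (log2 difference -1.32, SE 0.10, adjusted p = 2.84e-05) and in the Asb2 cKO against the control (log2 difference -1.05, SE 0.26, adjusted p = 0.0215). Tk1 (ENSMUSG00000025574, chr11:117815526-117826092, minus strand), the thymidine kinase of the salvage pathway, had 20.7, 16.7 and 18.7 CPM in the double mutant and 28.7, 13.7 and 22.8 CPM in the Asb2 cKO. Tk1 had 47.7, 49.1 and 38.2 CPM in the Flna-labelled group and 44.6, 40.8 and 41.8 CPM in the control. It too showed no overlap of either Asb2fl/fl group with the control, and it fell in the double mutant (log2 difference -1.16, SE 0.13, adjusted p = 0.000215) and in the Asb2 cKO (log2 difference -1.01, SE 0.23, adjusted p = 0.0127).

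Rrm1, the large subunit of the reductase, averaged 249 ± 15.8 CPM in the double mutant and 272 ± 42.8 CPM in the Asb2 cKO. Its levels were 406 ± 8.83 CPM in the Flna-labelled group and 386 ± 19.1 CPM in the control. It fell less than the small subunit, to 64.4% of the control mean in the double mutant, against 39.99% for Rrm2, though the difference between the genes was not tested. Ung, which removes uracil from DNA, averaged 35.7 ± 4.87 CPM in the double mutant and 40.8 ± 7.11 CPM in the Asb2 cKO. Ung had 59.6 ± 5.14 CPM in the Flna-labelled group and 59.3 ± 2.73 CPM in the control. It fell in both Asb2fl/fl groups (-0.73, adjusted p = 0.00254 in the double mutant and -0.55, adjusted p = 0.0294 in the Asb2 cKO). Tyms, thymidylate synthase, had 38.7, 27.1 and 31.8 CPM in the double mutant and 60.8, 24.3 and 34.7 CPM in the Asb2 cKO. Its levels were 74.2, 82.2 and 59.4 CPM in the Flna-labelled group and 59.5, 71.7 and 55.4 CPM in the control. Tyms fell in the double mutant (log2 difference -0.93, SE 0.15, adjusted p = 0.00194). In the Asb2 cKO its library 1, at 60.8 CPM, lay within the control range, and the difference did not pass (log2 difference -0.73, SE 0.28, adjusted p = 0.0940).

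Both E-type cyclins fell. Ccne1 (ENSMUSG00000002068, chr7:38097984-38107534, minus strand), the cyclin E that activates CDK2, stood at 28.3, 25.3 and 23.5 CPM in the double mutant and 48.4, 19.99 and 40.98 CPM in the Asb2 cKO. Ccne1 had 78.003, 84.2 and 71.6 CPM in the Flna-labelled group and 80.8, 75.9 and 71.7 CPM in the control. No Asb2fl/fl library reached the lowest of the other groups, and Ccne1 had the largest fall of the 43 genes in the double mutant (log2 difference -1.55, SE 0.12, adjusted p = 2.47e-05). It also fell in the Asb2 cKO (log2 difference -1.14, SE 0.28, adjusted p = 0.0194). Ccne2, the other cyclin E, averaged 37.01 ± 2.41 CPM in the double mutant and 42.2 ± 8.48 CPM in the Asb2 cKO. Its levels were 57.7 ± 10.6 CPM in the Flna-labelled group and 64.9 ± 7.003 CPM in the control. It fell in both Asb2fl/fl groups (-0.80, adjusted p = 0.00115 in the double mutant and -0.63, adjusted p = 0.0234 in the Asb2 cKO).

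The D-type cyclins, which answer to growth signals and pair with CDK4 and CDK6, did not pass against the control. Ccnd1 had 147, 114 and 104 CPM in the double mutant and 146, 101 and 115 CPM in the Asb2 cKO. Ccnd1 had 253, 233 and 194 CPM in the Flna-labelled group and 108, 223 and 222 CPM in the control. Control library 1, at 108 CPM, lay far below the other control libraries, so that Ccnd1 had the widest control spread of the 43 genes (coefficient of variation 35.8%), and the double mutant passed against the Flna-labelled group (log2 difference -0.90, SE 0.15, adjusted p = 0.00325) but not against the control (log2 difference -0.54, SE 0.29, adjusted p = 0.197). Ccnd2, at 141 CPM per kb of deposited gene length the most abundant of the 43 genes per length, had 799, 922 and 816 CPM in the double mutant and 546, 653 and 611 CPM in the Asb2 cKO. Its levels were 819, 841 and 1106 CPM in the Flna-labelled group and 1026, 713 and 817 CPM in the control. Its 3 Asb2 cKO libraries lay below all other libraries, yet neither that difference (log2 difference -0.49, SE 0.16, adjusted p = 0.0558) nor the double mutant's from the control (log2 difference 0.00, SE 0.15, adjusted p = 0.991) passed. Cdk2, the kinase partner of cyclin E, averaged 59.1 ± 1.37 CPM in the double mutant and 69.4 ± 8.46 CPM in the Asb2 cKO. Cdk2 had 89.5 ± 6.65 CPM in the Flna-labelled group and 88.1 ± 2.66 CPM in the control. A fall was called in the double mutant (log2 difference -0.57, SE 0.10, adjusted p = 0.00219), while the Asb2 cKO, also below every control library, did not pass (-0.35, adjusted p = 0.0815). Cdc25a, a phosphatase that activates these kinases, averaged 56.97 ± 10.4 CPM in the double mutant and 67.9 ± 14.9 CPM in the Asb2 cKO. Its levels were 101 ± 10.2 CPM in the Flna-labelled group and 82.2 ± 5.34 CPM in the control. It fell in the double mutant (-0.54, adjusted p = 0.0161) but did not pass in the Asb2 cKO (-0.30, adjusted p = 0.213).

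**Figure D2:**
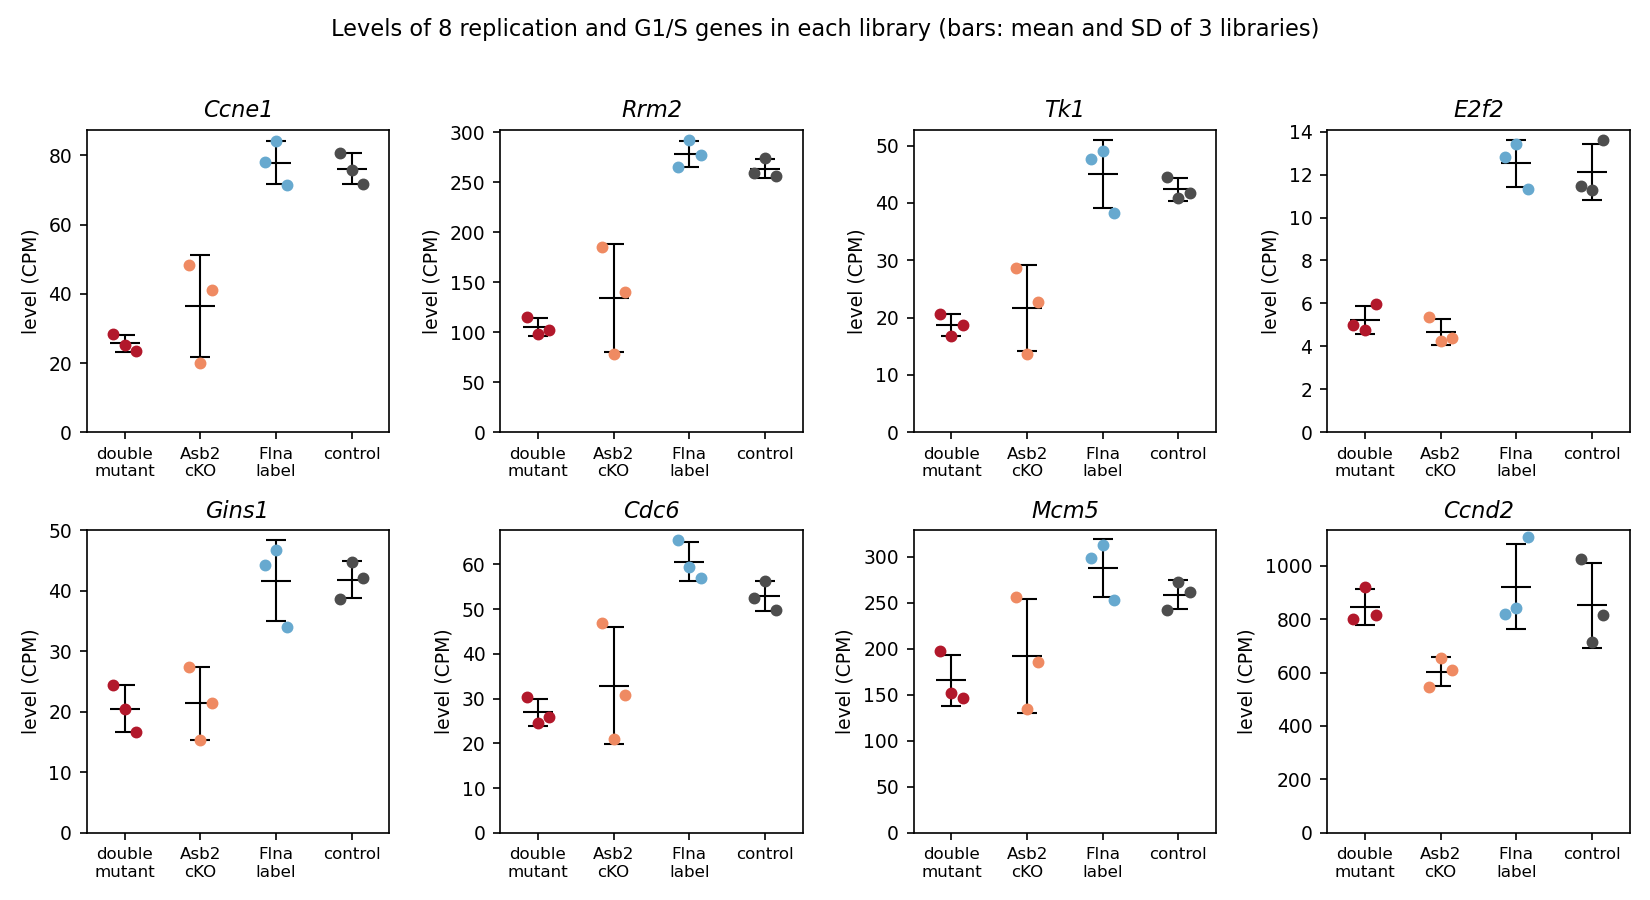
Level in CPM (vertical axes, from 0) of 8 of the genes in each library, with the mean and SD of the 3 libraries of a group. For Ccne1, Rrm2, Tk1, E2f2, Gins1 and Cdc6 every double mutant and Asb2 cKO library lies below every control library. For Mcm5 Asb2 cKO library 1 (257 CPM) lies within the control range, and for Ccnd2 only the Asb2 cKO lies below the control.

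Among the E2F factors the activators E2f1 and E2f2 fell in both Asb2fl/fl groups, and the other activator, E2f3, did not pass against the control. E2f2 (ENSMUSG00000018983, chr4:136172394-136196057, plus strand) had 4.98, 4.74 and 5.99 CPM in the double mutant and 5.39, 4.26 and 4.37 CPM in the Asb2 cKO. E2f2 had 12.8, 13.4 and 11.3 CPM in the Flna-labelled group and 11.5, 11.3 and 13.6 CPM in the control. All 6 Asb2fl/fl libraries lay close together and below every other library, Asb2 cKO library 1 included, and E2f2 was the gene with the largest fall in the Asb2 cKO (log2 difference -1.29, SE 0.21, adjusted p = 0.00302). It also fell in the double mutant (log2 difference -1.14, SE 0.18, adjusted p = 0.00174). E2f1 had 32.9, 28.7 and 24.1 CPM in the double mutant and 26.02, 21.8 and 32.9 CPM in the Asb2 cKO. Its levels were 46.7, 43.8 and 43.3 CPM in the Flna-labelled group and 43.7, 44.7 and 43.3 CPM in the control. A fall was called in the double mutant (log2 difference -0.62, SE 0.13, adjusted p = 0.00702) and in the Asb2 cKO (log2 difference -0.72, SE 0.17, adjusted p = 0.0134), again with no overlap with the control. E2f3 averaged 77.9 ± 2.58 CPM in the double mutant and 83.6 ± 3.74 CPM in the Asb2 cKO. E2f3 had 100.4 ± 4.96 CPM in the Flna-labelled group and 91.4 ± 7.26 CPM in the control. It fell in the double mutant against the Flna-labelled group (-0.36, adjusted p = 0.0121) but did not pass against the control (-0.23, adjusted p = 0.121).

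E2f7 and E2f8 encode atypical E2F factors that repress E2F targets. E2f7 had 25.5, 27.1 and 20.8 CPM in the double mutant and 38.1, 27.1 and 30.1 CPM in the Asb2 cKO. Its levels were 46.6, 46.2 and 44.5 CPM in the Flna-labelled group and 29.7, 36.4 and 37.2 CPM in the control. It was highest in the Flna-labelled libraries and fell in the double mutant against the control (-0.49, adjusted p = 0.0301) and against the Flna-labelled group (-0.90, adjusted p = 0.00129). E2f8 averaged 37.4 ± 13.2 CPM in the double mutant and 40.4 ± 1.62 CPM in the Asb2 cKO. E2f8 had 42.6 ± 9.01 CPM in the Flna-labelled group and 44.1 ± 2.70 CPM in the control. Its double mutant libraries, at 24.3, 37.4 and 50.6 CPM, spread on both sides of most other libraries, and E2f8 passed in none of the comparisons. Per kb of deposited gene length, the level of these genes over all libraries ran from 1.77 CPM per kb for E2f2, the lowest of the 43 genes, and 4.46 CPM per kb for E2f7 to 18.5 CPM per kb for E2f3.

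Of the 10 licensing genes, 8 fell in the double mutant against the Flna-labelled group, 6 fell in the double mutant against the control, and 1 fell in the Asb2 cKO. Among all genes tested, 16.3%, 16.7% and 10.9% fell in these comparisons, so the share in the Asb2 cKO was near that of all genes. Cdc6 (ENSMUSG00000017499, chr11:98907801-98923940, plus strand), the loader of the MCM helicase, had 30.3, 24.6 and 25.9 CPM in the double mutant and 46.8, 21.01 and 30.8 CPM in the Asb2 cKO. Its levels were 65.4, 59.5 and 56.9 CPM in the Flna-labelled group and 52.6, 56.4 and 49.7 CPM in the control. The Asb2 cKO libraries ran from below the double mutant to just under the control, and Cdc6 fell in the double mutant (log2 difference -0.97, SE 0.12, adjusted p = 0.000528) and in the Asb2 cKO (log2 difference -0.75, SE 0.24, adjusted p = 0.0481). Of the helicase subunits, Mcm5 had 198, 152 and 147 CPM in the double mutant and 257, 134 and 186 CPM in the Asb2 cKO. Mcm5 had 299, 313 and 253 CPM in the Flna-labelled group and 242, 273 and 262 CPM in the control. It fell in the double mutant against the control (log2 difference -0.65, SE 0.13, adjusted p = 0.00461), and the Asb2 cKO difference did not pass (-0.48, adjusted p = 0.113).

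Mcm2 (-0.59, adjusted p = 0.00205), Mcm4 (-0.59, adjusted p = 0.00623) and Mcm6 (-0.42, adjusted p = 0.02999) also fell in the double mutant against the control. Mcm3 (-0.18, adjusted p = 0.201) and Mcm7 (-0.21, adjusted p = 0.235) did not pass there, and these 2 helicase subunits fell against the Flna-labelled group (-0.44, adjusted p = 0.00974 and -0.45, adjusted p = 0.0245), where their levels stood above the control. All 6 subunits of the helicase ring had log2 differences in the double mutant from the control between -0.65 and -0.18. Orc6, a subunit of the origin recognition complex, averaged 53.3 ± 10.8 CPM in the double mutant and 62.8 ± 14.4 CPM in the Asb2 cKO. Its levels were 80.8 ± 8.51 CPM in the Flna-labelled group and 80.4 ± 12.7 CPM in the control. It fell in the double mutant (-0.60, adjusted p = 0.0202). Orc1, the largest subunit of that complex, had 12.8, 12.96 and 11.9 CPM in the double mutant and 21.5, 11.7 and 15.6 CPM in the Asb2 cKO. Orc1 had 14.5, 19.9 and 15.9 CPM in the Flna-labelled group and 16.03, 19.7 and 14.3 CPM in the control. Its double mutant libraries lay below every control library without passing (-0.39, adjusted p = 0.0890). Cdt1, the partner of CDC6 in loading, averaged 68.99 ± 11.5 CPM in the double mutant and 78.5 ± 16.03 CPM in the Asb2 cKO. Its levels were 83.5 ± 9.69 CPM in the Flna-labelled group and 76.2 ± 4.84 CPM in the control. It passed in no comparison. The 95% interval of its log2 difference in the double mutant from the control ran from -0.45 to 0.14.

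The GINS genes, whose products join CDC45 and the MCM ring into the active helicase, fell together in the double mutant. Gins1 (ENSMUSG00000027454, chr2:150905400-150931280, plus strand) had 24.4, 20.5 and 16.7 CPM in the double mutant and 27.3, 15.3 and 21.5 CPM in the Asb2 cKO. Gins1 had 44.2, 46.7 and 34.1 CPM in the Flna-labelled group and 38.7, 44.8 and 42.1 CPM in the control. Both Asb2fl/fl groups lay below all other libraries, and Gins1 fell in the double mutant (log2 difference -1.02, SE 0.15, adjusted p = 0.00118) and in the Asb2 cKO (log2 difference -0.99, SE 0.20, adjusted p = 0.00767). Gins2 averaged 32.9 ± 2.25 CPM in the double mutant and 46.5 ± 11.96 CPM in the Asb2 cKO. Its levels were 56.8 ± 4.04 CPM in the Flna-labelled group and 58.5 ± 6.45 CPM in the control. A fall was called in the double mutant (log2 difference -0.82, SE 0.12, adjusted p = 0.00118) and did not pass in the Asb2 cKO (-0.36, adjusted p = 0.192). Gins3 averaged 11.9 ± 0.704 CPM in the double mutant and 14.2 ± 0.642 CPM in the Asb2 cKO. Gins3 had 17.7 ± 1.37 CPM in the Flna-labelled group and 19.1 ± 0.750 CPM in the control. It varied little within groups and fell in the double mutant (log2 difference -0.66, SE 0.14, adjusted p = 0.00604), while the Asb2 cKO, below every control library, did not pass (-0.42, adjusted p = 0.0766). Cdc45 fell in the double mutant (-0.54, adjusted p = 0.0115), and Mcm10, which assists activation of the helicase, passed in no comparison (-0.36, adjusted p = 0.147 in the double mutant against the control).

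Of the 8 polymerase and clamp genes, 6 fell in the double mutant against the Flna-labelled group, 5 fell against the control, and 2 fell in the Asb2 cKO. The shares of all genes tested that fell there were 16.3%, 16.7% and 10.9%. Pcna, the sliding clamp, had 91.9, 77.2 and 71.4 CPM in the double mutant and 120.2, 63.5 and 101 CPM in the Asb2 cKO. Its levels were 143, 154 and 132 CPM in the Flna-labelled group and 147, 155 and 129.7 CPM in the control. No double mutant or Asb2 cKO library reached the lowest control or Flna-labelled library, and Pcna fell in the double mutant (log2 difference -0.84, SE 0.12, adjusted p = 0.00106) and in the Asb2 cKO (log2 difference -0.65, SE 0.21, adjusted p = 0.0468). Rfc3, a subunit of the clamp loader, averaged 29.3 ± 4.27 CPM in the double mutant and 30.9 ± 6.31 CPM in the Asb2 cKO. Rfc3 had 46.3 ± 7.65 CPM in the Flna-labelled group and 48.5 ± 3.95 CPM in the control. It fell in both Asb2fl/fl groups (-0.73, adjusted p = 0.00383 in the double mutant and -0.66, adjusted p = 0.0201 in the Asb2 cKO). Its partners Rfc4 (-0.48, adjusted p = 0.0361) and Rfc5 (-0.43, adjusted p = 0.0136) fell in the double mutant, and neither passed in the Asb2 cKO (-0.36, adjusted p = 0.237 and -0.20, adjusted p = 0.407). Prim1, the primase that starts each new strand, averaged 34.3 ± 4.80 CPM in the double mutant and 38.6 ± 11.7 CPM in the Asb2 cKO. Its levels were 53.7 ± 3.59 CPM in the Flna-labelled group and 55.1 ± 6.46 CPM in the control. It fell in the double mutant (-0.68, adjusted p = 0.00596).

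The catalytic polymerase subunits did not pass against the control. Pola1, of the polymerase that extends the primer, averaged 52.04 ± 1.17 CPM in the double mutant and 62.03 ± 14.9 CPM in the Asb2 cKO. Pola1 had 72.6 ± 5.05 CPM in the Flna-labelled group and 65.8 ± 7.83 CPM in the control. It just missed the threshold in the double mutant against the control (-0.33, adjusted p = 0.0525) and fell against the Flna-labelled group (-0.47, adjusted p = 0.00548). Pold1, of the lagging-strand polymerase, had 111, 91.3 and 70.3 CPM in the double mutant and 132, 75.7 and 96.1 CPM in the Asb2 cKO. Its levels were 107, 101 and 99.8 CPM in the Flna-labelled group and 89.4, 90.4 and 97.2 CPM in the control. It passed in no comparison. Pole, of the leading-strand polymerase, had 51.9, 47.2 and 44.6 CPM in the double mutant and 80.3, 48.03 and 53.3 CPM in the Asb2 cKO. Pole had 57.003, 57.5 and 62.2 CPM in the Flna-labelled group and 44.4, 42.1 and 55.4 CPM in the control. For Pole the mean in each mutant group was at or above that of the control, with log2 differences from the control of 0.03 in the double mutant (95% interval -0.27 to 0.32) and 0.33 in the Asb2 cKO (-0.10 to 0.76). Pole passed for the double mutant against the Flna-labelled group (-0.30, adjusted p = 0.0458), a call lost in edgeR (0.0508), DESeq2 (0.0542) and the joint fit of all libraries (0.198).

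All 4 genes of chromatin assembly and histone supply fell in the double mutant against either reference, and 0 of 4 passed in the Asb2 cKO. Against the Flna-labelled group and the control, 16.3% and 16.7% of all genes tested fell in the double mutant, and 10.9% fell in the Asb2 cKO. Chaf1b, a subunit of chromatin assembly factor 1, averaged 28.9 ± 2.74 CPM in the double mutant and 35.2 ± 13.96 CPM in the Asb2 cKO. Its levels were 49.8 ± 10.3 CPM in the Flna-labelled group and 50.4 ± 4.91 CPM in the control. A fall was called in the double mutant (log2 difference -0.79, SE 0.13, adjusted p = 0.00170). Its partner Chaf1a fell less (-0.47, adjusted p = 0.0269). Slbp, whose product binds the stem-loop of histone mRNAs, fell in the double mutant (-0.52, adjusted p = 0.0227), averaging 59.5 ± 10.02 CPM there, 69.97 ± 18.2 CPM in the Asb2 cKO, 102 ± 17.5 CPM in the Flna-labelled group and 85.7 ± 12.2 CPM in the control. Uhrf1, which brings the maintenance DNA methyltransferase to new DNA, had 137, 100.2 and 116 CPM in the double mutant and 201, 91.9 and 139 CPM in the Asb2 cKO. Uhrf1 had 209, 208 and 189 CPM in the Flna-labelled group and 145, 157 and 168 CPM in the control. The Flna-labelled libraries and Asb2 cKO library 1 stood above every control library, and Uhrf1 fell in the double mutant against the control (-0.42, adjusted p = 0.0320) and against the Flna-labelled group (-0.78, adjusted p = 0.00219).

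The calls differed in how far they rested on single libraries. In the Asb2 cKO against the control, E2f1, E2f2, Gins1 and Tk1 kept their calls without any 1 library. Ccne1 lost its call without control library 2 (adjusted p = 0.0549), and Rrm2 without control library 2 (0.0635) or 3 (0.0518). Rfc3 lost its call without control library 2 (0.0799), Ccne2 without control library 2 (0.0946) or Asb2 cKO library 2 (0.0572), and Ung without any control library or Asb2 cKO library 2 (0.0545 to 0.101). Cdc6, Pcna and Rrm1 each kept the call in only 1 of the 6 fits with a library left out, with adjusted p up to 0.128, 0.13 and 0.093. The count of 12 became 4 without control library 2, 7 without control library 3, 19 without Asb2 cKO library 1 and 7 without Asb2 cKO library 2. The share of all genes at an unadjusted limma p under 0.05 was 37.0% in the main fit. In those 4 fits it was 29.3%, 34.3%, 35.1% and 31.0% in the same order.

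In the double mutant the calls were steadier. Against the control, 21 of 31 calls held without any 1 library, and the count ran from 22 (without control library 2) to 32. The 10 others were Cdc25a, Cdc45, Chaf1a, E2f7, Mcm6, Orc6, Rfc4, Rfc5, Slbp and Uhrf1, with adjusted p from 0.0505 to 0.14 in the fits that lost them. In a joint fit of all 12 libraries with log2 Xist as a covariate, 16 genes fell in the double mutant against the control, in place of 31, and 21 fell in the Asb2 cKO, in place of 12. The share of all genes at an unadjusted limma p under 0.05 moved as well. It went from 43.9% to 34.8% in the double mutant against the control, and from 37.0% to 42.6% in the Asb2 cKO. Without control library 2 the share in the double mutant was 37.7%. Against the Flna-labelled group, 28 of 36 calls held without any 1 library, and the 8 others (E2f3, Gins3, Mcm6, Mcm7, Orc6, Pole, Rfc3 and Rfc5) reached adjusted p of 0.0504 to 0.121.

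**Figure D3:**
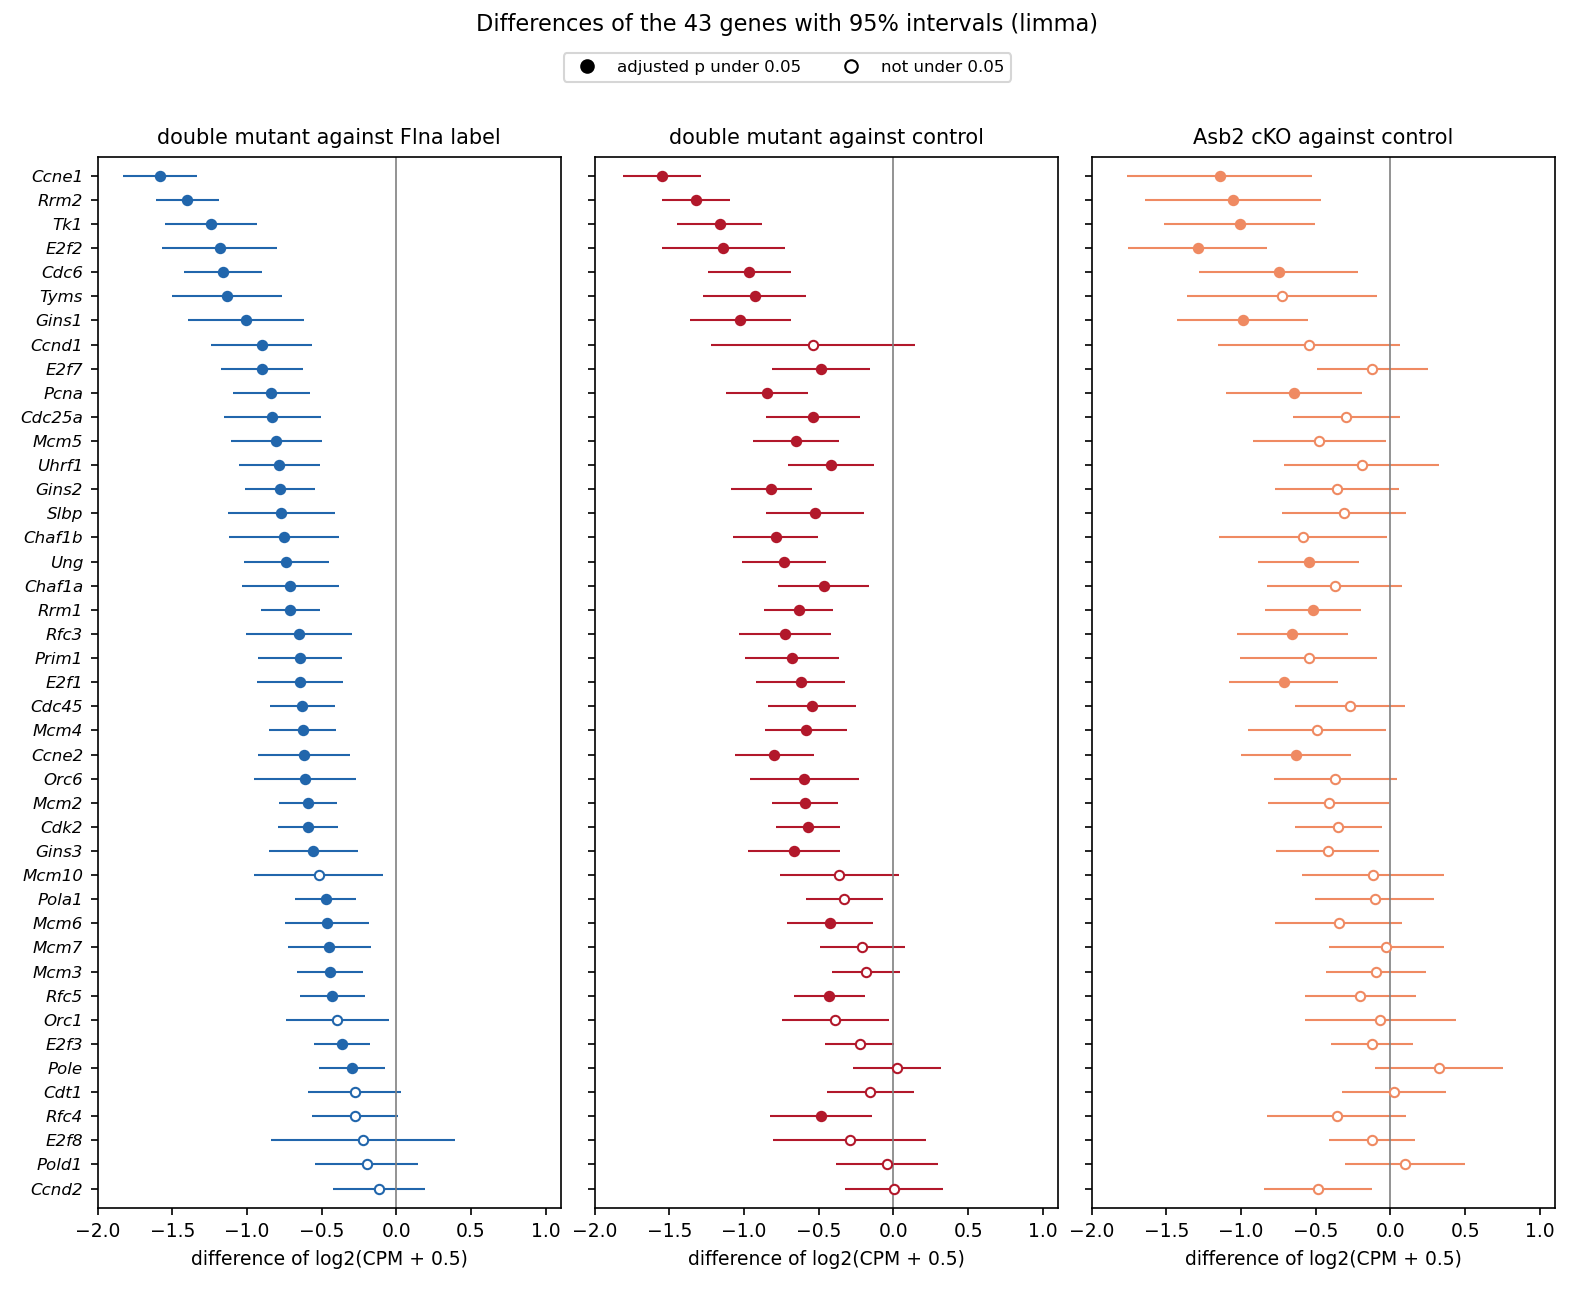
Difference of log2(CPM + 0.5) of the 43 genes in 3 comparisons, with 95% intervals from limma, genes ordered by the comparison of the double mutant with the Flna-labelled group. Filled points have an adjusted p under 0.05, and number 36, 31 and 12 from left to right. Ccne1 and Rrm2 lead the double mutant comparisons, and E2f2 has the lowest value in the Asb2 cKO.

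The comparison of the double mutant with the Flna-labelled group and that of the Asb2 cKO with the control have no library in common, and each sets libraries labelled Asb2fl/fl against libraries labelled Asb2fl/+, though Asb2 RNA itself overlapped between the double mutant and the Flna-labelled group. All 12 genes called in the Asb2 cKO were also called in the double mutant against the Flna-labelled group, which is all of the 12 and 33.3% of the 36. With 36 of the 43 genes called there, a large overlap would arise for most choices of 12. Of the 43 genes, 40 had a negative log2 difference in both comparisons, and 37 had the larger fall in the double mutant. Across the 43 genes the log2 differences correlated at Pearson's r = 0.79 and Spearman's rho = 0.71, as a description of genes that share libraries within each comparison. Ccne1 (-1.58 in the double mutant against the Flna-labelled group and -1.14 in the Asb2 cKO), Rrm2 (-1.40 and -1.05), Tk1 (-1.24 and -1.01) and E2f2 (-1.18 and -1.29) had the largest falls in both. The double mutant and the Asb2 cKO were both compared with the same control libraries as well, and those 2 comparisons are therefore given side by side above and not set against each other. Ccnd2, Cdt1, E2f8, Mcm10, Orc1 and Pold1 were called in none of these 3 comparisons.

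**Figure D4:**
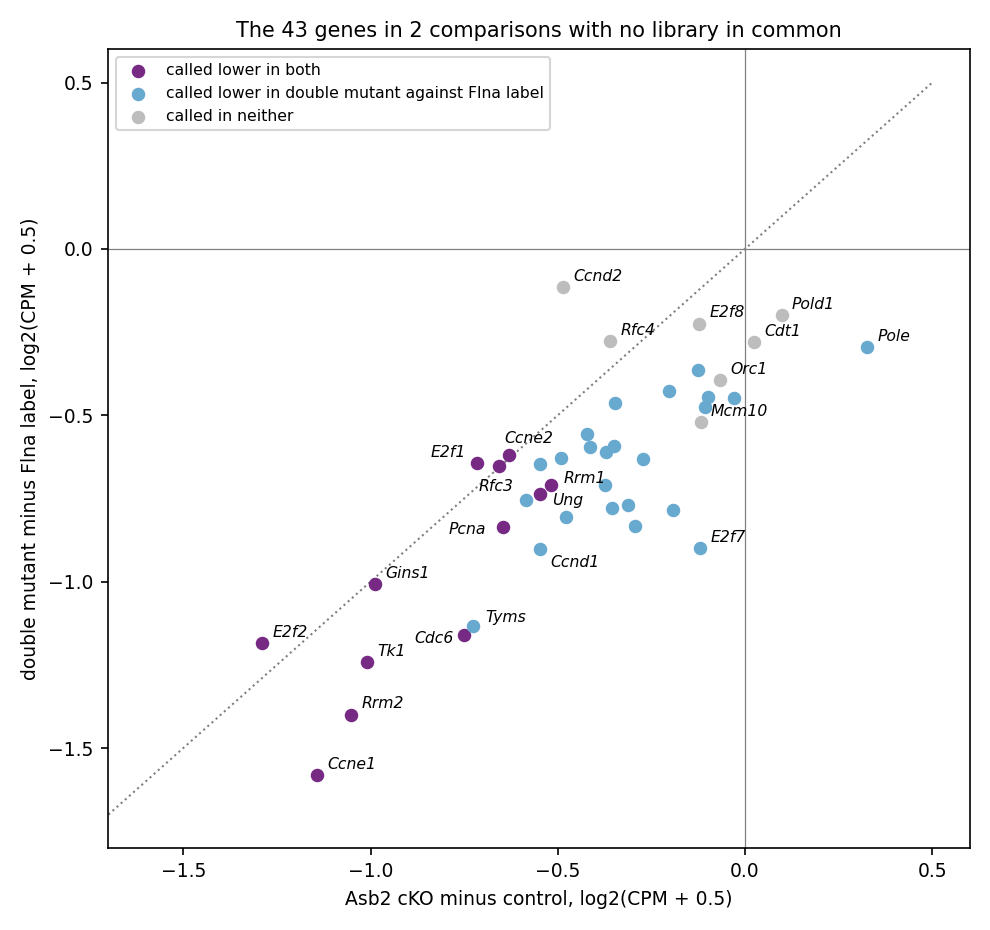
Each point is a gene, placed by its difference of log2(CPM + 0.5) in the Asb2 cKO minus the control (horizontal) and in the double mutant minus the Flna-labelled group (vertical), with a dotted line of equal difference. The 12 genes called in both lie at the lower left, 37 of 43 points lie below the line, and Pole is the point farthest to the right, at 0.33 and -0.30.

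Between the Flna-labelled group and the control the genes stayed close in the main fit. In the joint fit with Xist the median log2 difference was 0.27. There 9 of 43 genes, and 13.0% of all genes, had an unadjusted limma p under 0.05. The median log2 difference was 0.07 (all genes 0.00), 32 genes were above the control and 11 below, and 0 passed in limma or in edgeR's quasi-likelihood test, with 1 (Uhrf1, higher) in DESeq2 and 6 at an unadjusted limma p under 0.05, where 13.1% of all genes had one. In 8 genes every Flna-labelled library lay above every control library, where 9.27% of all genes did so. These were Cdc25a, Cdc6, E2f7, Mcm3, Mcm7, Pold1, Pole and Uhrf1, while 0 of 43 lay wholly below, where 8.71% of all genes did so. E2f7 had the largest difference of the 8 (log2 difference 0.41, SE 0.12, adjusted p = 0.292). For Ccne1, which fell most in the double mutant, the 95% interval of the difference was -0.20 to 0.26 (adjusted p = 0.912).

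Between the double mutant and the Asb2 cKO 0 of 43 genes passed, where 0.0142% of 14037 genes rose and 0.00712% fell, and 0 passed in edgeR or DESeq2 with 2 (Ccnd2 and Gins2) at an unadjusted limma p under 0.05, where 3.36% of all genes had one. The median log2 difference was -0.18, with 39 genes lower in the double mutant. That median was 0.00 without Asb2 cKO library 1 and -0.38 without Asb2 cKO library 2, where 26 of 43 genes, and 11.1% of all genes, had an unadjusted p under 0.05 and 0 of 43 were called. The 4 genes with a positive difference were Ccnd2, E2f2 (0.15), E2f1 (0.09) and Ccnd1 (0.01). For Ccnd2 the 3 double mutant libraries lay above the 3 Asb2 cKO libraries, at 140.1% of their mean (log2 difference 0.49, SE 0.14, adjusted p = 0.999), where 4.35% of all genes lay wholly above. Gins3 and E2f7 lay wholly below, E2f7 by less than the value of 1 read, where 3.53% of all genes lay wholly below.

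The interaction, which asks whether the Asb2fl/fl difference depends on the Flna label, was called for 0 of 43 genes and for 0% of 13981 genes in limma, and for 0 of 43 in edgeR and DESeq2. The median interaction was -0.24, and 3 genes had an unadjusted p under 0.05, where 9.81% of all genes had one. They were E2f7 (-0.78, 95% interval -1.23 to -0.33), Pole (-0.62, -1.13 to -0.12) and Cdc25a (-0.54, -1.03 to -0.04). Without Asb2 cKO library 2 the median was -0.47, and 24 of 43 genes and 14.4% of all genes had an unadjusted p under 0.05. Without Asb2 cKO library 1 the median was -0.11, and 2 of 43 genes and 5.75% of all genes had one. For Ccne1 the interval ran from -1.17 to 0.29 and for Tk1 from -0.87 to 0.40, both spanning 0.

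Many other replication genes fell in the double mutant. Of 58 further genes of replication and G1/S, 37 fell and 2 rose in the double mutant against the Flna-labelled group, 31 fell and 2 rose in the double mutant against the control, and 9 fell and 2 rose in the Asb2 cKO, with medians of -0.48, -0.39 and -0.29. In the same comparisons 16.3%, 16.7% and 10.9% of all genes fell, so that the share in the Asb2 cKO (15.5% of the 58) was near that of all genes. Fen1, the nuclease that trims Okazaki fragments, fell in the double mutant against the control (-1.17, adjusted p = 0.000124), as did Rpa1, the large subunit of the single-strand binding protein (-0.89, adjusted p = 0.000197), and Dna2, another such nuclease (-0.90, adjusted p = 0.000451). In the Asb2 cKO the smallest p among those that fell were of Asf1b, a histone chaperone (-1.22, adjusted p = 0.00328), Dna2 (-0.78, adjusted p = 0.0155) and Cdc7, the kinase that fires origins (-0.74, adjusted p = 0.0218). Those that rose were Tfdp2 (0.79, adjusted p = 0.0150), an E2F partner, and Ticrr (0.59, adjusted p = 0.0418) in the Asb2 cKO, and Tfdp2 (0.60, adjusted p = 0.0269) and Rb1 (0.76, adjusted p = 0.00359), the retinoblastoma gene, in the double mutant against the control.

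Mitotic genes also fell in the double mutant. Of 30 genes of G2/M and mitosis, 18 fell in the double mutant against the Flna-labelled group, 14 fell in the double mutant against the control and 0 in the Asb2 cKO, with medians of -0.34, -0.30 and -0.09, and 0 rose. In the same comparisons 16.3%, 16.7% and 10.9% of all genes tested fell, and 15.1%, 15.6% and 10.7% rose. Between the double mutant and the Asb2 cKO 0 of the 30 passed. The smallest p in the double mutant against the control were of Cdca8 (-0.55, adjusted p = 0.00416), Birc5 (-0.63, adjusted p = 0.005003) and Kif23 (-0.60, adjusted p = 0.00507), which act in chromosome segregation and cytokinesis. Mki67, a marker of cycling cells, averaged 285 ± 16.6 CPM in the double mutant and 310.1 ± 25.8 CPM in the Asb2 cKO. Its levels were 285 ± 16.5 CPM in the Flna-labelled group and 290.4 ± 20.2 CPM in the control. It was called in none of these comparisons.

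Several genes that restrain the cycle rose, and 2 fell. Of 14 tested CDK inhibitors and growth arrest genes, 9 rose and 2 fell in the double mutant against the Flna-labelled group and likewise 9 and 2 against the control, and 6 rose and 2 fell in the Asb2 cKO. Among all genes tested, 15.1%, 15.6% and 10.7% rose and 16.3%, 16.7% and 10.9% fell in the same order. The share of the list that fell (14.3%) was thus near that of all genes. Cdkn1b, the inhibitor p27, averaged 98.1 ± 13.6 CPM in the double mutant and 102 ± 16.2 CPM in the Asb2 cKO. Cdkn1b had 56.1 ± 2.92 CPM in the Flna-labelled group and 48.1 ± 3.32 CPM in the control. It rose in the double mutant (1.02, adjusted p = 0.000430) and in the Asb2 cKO (1.06, adjusted p = 0.00107). Cdkn1a, the inhibitor p21, rose in the double mutant (1.32, adjusted p = 0.000141). Ccng2 (1.66, adjusted p = 4.65e-05 in the double mutant and 1.71, adjusted p = 0.000370 in the Asb2 cKO) and Sesn2 (2.53, adjusted p = 1.54e-05 and 1.93, adjusted p = 0.000632), which are induced by stress, had the largest rises of the list in the Asb2 cKO. Cdkn1c, the inhibitor p57, fell, to 785 ± 121 CPM in the double mutant (-1.09, adjusted p = 0.000528) and 748 ± 195 CPM in the Asb2 cKO (-1.17, adjusted p = 0.00232), against 1342 ± 129.6 CPM in the Flna-labelled group and 1656 ± 99.2 CPM in the control. Cdkn2c, the inhibitor p18, was the other gene that fell (-1.17, adjusted p = 0.00804 in the double mutant and -0.97, adjusted p = 0.0481 in the Asb2 cKO, against the control). By library, the list's median log2 deviation was 0.34, 0.34 and 0.46 in the double mutant, -0.05, 0.54 and 0.15 in the Asb2 cKO, -0.21, -0.33 and -0.29 in the Flna-labelled group and -0.35, -0.26 and -0.27 in the control. Within the Asb2 cKO library 2 had the highest value, as it had the lowest of the 43 replication genes.

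Some markers of other cell types differed between the same groups. Of all genes tested, 16.7% fell in the double mutant against the control and 10.9% in the Asb2 cKO. Against the Flna-labelled group 16.3% fell in the double mutant, and 0.0432% fell in that group against the control. All 14 primitive erythroid genes fell in the double mutant against the control and in the Asb2 cKO, 13 of 14 in the double mutant against the Flna-labelled group, and 4 of 14 in the Flna-labelled group against the control. Their summed level was 624, 487 and 382 CPM in the double mutant, 539, 658 and 1245 CPM in the Asb2 cKO libraries, 3143, 4028 and 3201 CPM in the Flna-labelled group and 7637, 7595 and 8252 CPM in the control. None of the 14 was at 0 in any library, with Hbb-y at 241 ± 76.8 CPM and Gata1 at 0.573 ± 0.577 CPM in the double mutant, against 4093 ± 412 and 7.79 ± 1.08 CPM in the control. Asb2 cKO libraries 1 and 2 had alike summed erythroid levels, 539 and 658 CPM, while their medians of the 43 replication genes lay apart, at 0.16 and -0.54. The Flna-labelled libraries had 3143 to 4028 CPM, against 7595 to 8252 CPM in the control, with 0 of 43 replication genes called. In double mutant libraries 1, 2 and 3 the summed levels, 624, 487 and 382 CPM, ran in the same order as the medians, -0.22, -0.35 and -0.49. The part of erythroid cells in the falls was not tested.

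In the double mutant 15.1% of all genes tested rose and 16.3% fell against the Flna-labelled group. Against the control 15.6% rose and 16.7% fell there, and 10.7% rose and 10.9% fell in the Asb2 cKO. Of 12 endothelial markers, 7 rose and 0 fell in the double mutant against the Flna-labelled group and against the control, and 3 rose and 2 fell in the Asb2 cKO. Their summed level was 1384, 1476 and 1782 CPM in the double mutant, 1076, 1574 and 1174 CPM in the Asb2 cKO libraries, 901, 809.6 and 1023 CPM in the Flna-labelled group and 1060.3, 911 and 1087 CPM in the control. Of 11 tested markers of pharyngeal endoderm and surface epithelium, 7 rose in the Asb2 cKO and 2 in the double mutant against the control. For this list the share in the double mutant (18.2%) was near the 15.6% of all genes that rose there. The summed level of that list ran from 342 to 600.4 CPM in the double mutant, from 459.6 to 629 CPM in the Asb2 cKO, from 235 to 458 CPM in the Flna-labelled group and from 233 to 309.6 CPM in the control, with Krt14 at 0 in at least 1 library. Of liver bud and yolk sac markers, 2 of 8 fell and 1 rose in the double mutant against the control, and 8 of 10 fell against the Flna-labelled group. The summed level of that list ran from 38.2 to 63.2 CPM in the double mutant, from 46.8 to 165 CPM in the Asb2 cKO, from 143 to 527 CPM in the Flna-labelled group and from 18.2 to 353 CPM in the control, with Afp, Alb, Fgb, Hnf4a and Ttr at 0 in at least 1 library. Of 11 cardiomyocyte markers 2 (Myh7 and Ttn) rose in the double mutant against the Flna-labelled group, 1 (Myh7) rose against the control, and 0 passed in the Asb2 cKO. Second heart field markers rose for 3 of 10 in the Asb2 cKO and 1 of 10 in the double mutant, neural crest markers for 0 of 8 and 1 of 8, and epicardial and macrophage markers passed for 0 of 6 and 0 of 2 in each comparison with the control. The 1 of 10 and 1 of 8 in the double mutant were below the 15.6% of all genes that rose there. Against the Flna-labelled group 2 of 6 epicardial markers fell in the double mutant, Tcf21 and Wt1. Their part in the results on the replication genes was not tested. Of 21 replication-dependent histone genes, whose mRNAs mostly lack poly(A) tails, 14 were listed, with a summed level of 8.12 to 28.3 CPM per library, and 1 of the 7 tested, Hist1h2ae, fell in the double mutant against the control.

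**Figure D5:**
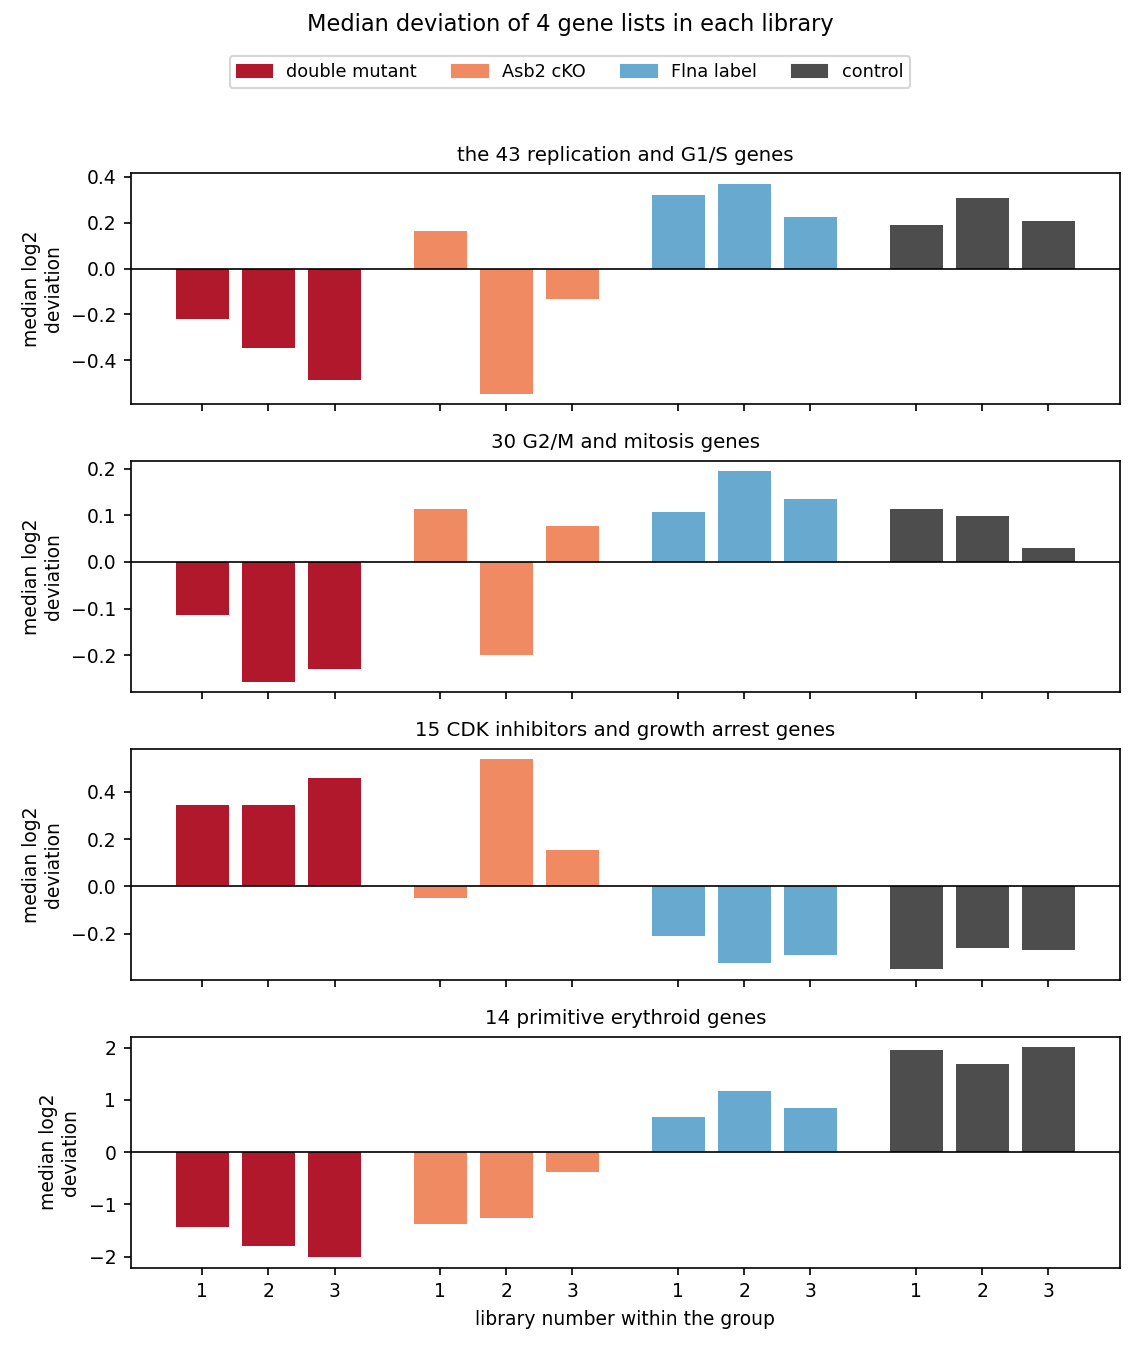
Median log2 deviation (vertical axes, each with its own range) of 4 gene lists in each library, coloured by group. The 43 replication genes are below 0 in the 3 double mutant libraries and in Asb2 cKO libraries 2 and 3, the CDK inhibitor list is above 0 in those same 5 libraries, the G2/M genes are below 0 in the double mutant and in Asb2 cKO library 2, and the erythroid genes are below 0 in all 6 Asb2fl/fl libraries.

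Many of the promoters hold letters that E2F factors are known to bind. RefSeq windows of GRCm38.p6, from 250 bases before to 50 after a transcript start, were matched for 36 of the 43 genes and searched on both strands for TTTGGCGC, TTTCCCGC, TTTCGCGC and TTTGCCGC. Of the 36 genes 17 (47.2%) held at least 1 of these, against 704 of 27025 genes in the table (2.61%). The letters TTTGAA, the core of an element of late cell cycle genes, were in 6 of 36 (16.7%), against 20.2% of all genes. Matches were no more frequent among the called genes. They were in 14 of 30 genes called lower in the double mutant against the Flna-labelled group and in 3 of 6 not called, and in 3 of 10 genes called lower in the Asb2 cKO and in 14 of 26 not called.

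The stretches below show matches in 5 genes that fell in the double mutant and in Orc1, which passed in no comparison. They are written 5′ to 3′ on the gene's strand with the matched letters in capitals. In Mcm5 and Mcm6 a match on each strand overlaps the other, and in Mcm6 a further match stands nearer the start. They lie at chr11:98908002-98908031, plus strand (Cdc6), chr10:128705162-128705221, minus strand (Cdk2), chr8:75109326-75109385, plus strand (Mcm5), chr1:128359736-128359845, minus strand (Mcm6), chr9:109875482-109875541, plus strand (Cdc25a) and chr4:108579416-108579445, plus strand (Orc1), and the first matched base lies 138, 140, 153, 110, 67 and 27 bases before the RefSeq start in the same order.
Cdc6: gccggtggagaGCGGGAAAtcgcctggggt
Cdk2: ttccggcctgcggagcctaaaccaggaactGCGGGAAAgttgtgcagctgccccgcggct
Mcm5: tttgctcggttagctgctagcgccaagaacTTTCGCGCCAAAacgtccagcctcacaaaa
Mcm6: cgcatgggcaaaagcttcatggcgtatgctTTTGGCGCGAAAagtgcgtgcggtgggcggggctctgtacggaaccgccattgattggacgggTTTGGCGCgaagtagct
Cdc25a: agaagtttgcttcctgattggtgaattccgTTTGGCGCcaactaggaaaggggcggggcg
Orc1: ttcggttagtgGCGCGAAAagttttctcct
The windows of Ccne1, Rrm2, Tk1, E2f1 and Pcna, which fell in all 3 comparisons, held no match to these letters. A match describes letters in a window and not a bound site.

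In the authors' deposited table the test is given as an FDR. At an FDR under 0.05, 17 of the 43 genes were lower and 0 higher in the Asb2 cKO against the control. Shares of all genes passing that FDR are not given here, and the limma shares above come from another test. These counts and those that follow therefore do not show how far the 43 genes exceed a background. The authors' deposited table had 29 lower and 0 higher in the double mutant against the control, and 0 in either direction in the Flna-labelled group against the control and in the double mutant against the Asb2 cKO.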

How the data were processed

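Total RNA of embryonic mouse hearts was measured in 12 RNA sequencing libraries, 3 in each of 4 genotype groups taken from the genotype labels of the samples. The authors deposited 4 tables of comparisons with a per-library value for each gene. Those values are a depth-scaled read signal, deposited by the authors as CPM on scaled library sizes, and their columns sum to 942334 to 1051801. Tables also hold the authors' deposited log2 fold changes and p-values with FDR. The submitters' processing notes name STAR, HTSeq, edgeR and mm10, and settings, the annotation and the use of strand are not given in the sources used here. The 4 tables were joined by gene ID (values shared between tables differed by up to 4.4e-06 CPM), and 13 columns without a name were not used. Of the IDs, 15522 (99.1%) are in GENCODE M21, from which coordinates are given.

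Genes whose mean over the compared libraries reached 1 CPM were tested with limma 3.58.1 (trend and robust options) on log2(CPM + 0.5), 6 libraries at a time and 12 for the interaction, with Benjamini-Hochberg adjustment over all genes tested and a threshold of 0.05. The fits were also run on simulated counts with the same dispersion for every gene and no shared variation between genes. Those counts lack the spread seen among the Asb2 cKO libraries, and nothing is concluded from them. Dividing by the value of 1 read gave whole reads for 100.0% of values within 0.01 read, and edgeR 4.0.16 and DESeq2 1.42.0 were run on those reads as alternatives. Other alternatives were the pseudocount, the filter, another scaling, the options of limma, a length trend, a replicate block, joint fits with and without Xist, and leaving out each library. Replicate numbers name libraries and do not pair them. Libraries of a group differed by more than sampling noise.

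The 43 genes, the other lists, the tests and the alternatives were chosen with earlier results of these data known. By rule, the genes named were the 43 and, in each other list, up to 3 of those called with the smallest p, with defining markers of cell types. Mki67 and, where they fall outside that rule, single members of short counts were chosen after their values were seen.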

Additional observations from a re-analysis of the deposited data

Results flagged for a closer look

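E2f7, an atypical E2F repressor, had differences of opposite sign in the comparisons that involve the Flna label, with every library of one group on one side, though neither passed. In the Flna-labelled group all 3 libraries (46.6, 46.2 and 44.5 CPM) lay above all 3 control libraries (29.7, 36.4 and 37.2 CPM), with a log2 difference of 0.41 (adjusted p = 0.292 in limma). In that comparison 9.27% of all genes lay wholly above. In the double mutant all 3 libraries (25.5, 27.1 and 20.8 CPM) lay below all 3 Asb2 cKO libraries (38.1, 27.1 and 30.1 CPM), with a log2 difference of -0.37 (adjusted p = 0.999 in limma). Here 3.53% of all genes lay wholly below. The interaction of -0.78 had an adjusted p of 0.416 over all genes in limma's test, and did not pass. The closest pair of libraries, double mutant library 2 (27.069 CPM) and Asb2 cKO library 2 (27.092 CPM), both round to 27.1 CPM. They lie closer together than the value of 1 read in either (0.0248 and 0.0380 CPM), so the groups are barely apart.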

How the results depend on the processing

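The count of 12 genes lower in the Asb2 cKO against the control ran from 4 to 19 when 1 library was left out, and was 5 with limma without its trend and robust options, 6 with a replicate block and 21 in the joint fit with Xist. The count of 31 in the double mutant against the control was 16 in the joint fit with Xist, and 1 gene, Uhrf1, was higher in the Flna-labelled group in DESeq2, in place of 0. The share of all genes at an unadjusted limma p under 0.05 moved too. In the Asb2 cKO it was 37.0% in the main fit, 35.2% without those options, 29.4% with the block and 42.6% with Xist. In the double mutant against the control it was 43.9% in the main fit and 34.8% with Xist. The causes of these shifts were not tested. With the replicate block 30 genes were lower in the double mutant against the control and 37 against the Flna-labelled group. There 44.0% and 48.9% of all genes had an unadjusted limma p under 0.05, where the main fits had 43.9% and 43.8%. Same-numbered libraries correlated at -0.46 to 0.43 in their deviations, and 0 of 6 pairs of groups had all correlations over 0.1, so the block has no basis in the labels. No gene that passed changed direction under any alternative. Over the called genes and the alternatives, calls were kept 175 times and lost 41 times in the Asb2 cKO, 501 and 57 times in the double mutant against the control, and 616 and 32 times against the Flna-labelled group. The median over the 43 genes ran from -0.73 to -0.58 in the double mutant against the Flna-labelled group, from -0.66 to -0.45 against the control, and from -0.52 to -0.20 in the Asb2 cKO. The median ran from -0.38 to 0.01 in the double mutant against the Asb2 cKO and from -0.47 to -0.11 for the interaction. For the Flna-labelled group against the control it ran from 0.03 to 0.27, highest in the joint fit with Xist.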
